A study of Homo sapiens with 18 samples.

Results

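Cells in which the cohesin subunit RAD21 was silenced while MycER was switched on for 48 h (siRAD21 OHT) were compared with cells that had neither treatment (siCtrl). The comparison rests on 5 of the 18 RNA-seq libraries of the study, 2 of siRAD21 OHT and 3 of siCtrl cells, chosen by their labels. It covers 14993 of the 23399 genes in the deposited file, those with a mean of at least 1 eRPKM over the 18 libraries (eRPKM, exonic reads scaled to transcript length and library depth). The siRAD21 OHT cells were transfected with a pool of siRNAs against RAD21 and given 400 nM 4-hydroxytamoxifen (OHT) together with the transfection. The siCtrl cells received siRNA against Renilla luciferase, which human cells lack, and ethanol. Cells with only the RAD21 siRNAs and ethanol (siRAD21, n = 2) and with only OHT and the control siRNA (siCtrl OHT, n = 3) were collected at the same time. All of them are U2OS-MycER cells, a human osteosarcoma line transduced with a retrovirus coding for Myc fused to the estrogen receptor, so the siCtrl cells carry the transgene as well. Whether the line is a clone is not given in the sources used here. OHT was given only to cells with MycER, so effects of the drug and of MycER cannot be told apart.

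Cohesin is a ring of SMC1A, SMC3 and RAD21, with STAG1 or STAG2 bound to it, that holds sister chromatids together and forms loops of chromatin. RAD21 closes the ring. Myc binds DNA with its partner MAX, often at the letters CACGTG (the E-box), and is known for raising genes of ribosome production and nucleotide synthesis and for lowering genes of cell adhesion. MycER is made all the time but stays inactive until the cells receive OHT.

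The libraries hold 9647501 to 12678599 reads. The siRAD21 OHT libraries at 48 h differed by no more than the sampling noise of their reads, with a chi-square of 0.981 per gene over 11821 genes where the other 11 pairs of replicates had 1.05 to 4.42. They were therefore averaged and counted as 1 sample, and both values are given without an SD. The fit assumes that this sample varies like those of the other groups, and p-values measure the spread between libraries, which may be technical. PCR duplicates had been removed, which holds every gene under a limit of 158 to 207 eRPKM depending on the library, so changes of the highest genes are understated. The largest value in any library was 174.2 eRPKM, and 1158 of the tested genes had more than 50 eRPKM in siCtrl cells. Of 9 osteoblast markers, 5 passed the filter and SP7, COL1A2, BGLAP and IBSP did not. The osteoblast list summed to 130 to 161 eRPKM in siCtrl and 104 eRPKM in siRAD21 OHT libraries. Of 16 markers of other cell types, 13 were under 1 eRPKM in every siCtrl library and 14 in both siRAD21 OHT libraries, with sums of 10.9 to 11.8 and 12.2 to 12.8 eRPKM. Since the RNA comes from whole cultures, fewer cells of a kind and less RNA per cell cannot be told apart.

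RAD21 mRNA was 93.3, 96.9 and 89.0 eRPKM in the siCtrl libraries and 11.1 eRPKM in each siRAD21 OHT library. The groups do not overlap. The log2 fold change was -3.01 (SE 0.062, Benjamini-Hochberg adjusted p = 4.72e-12 in limma). With the siRNAs alone RAD21 was at 11.2 ± 0.105 eRPKM (SD, n = 2), and with OHT alone at 93.9 ± 4.12 eRPKM (SD, n = 3). siRAD21 OHT and siRAD21 cells differed by -0.02 on the log2 scale (Benjamini-Hochberg adjusted p = 0.848 in limma). The gene lies on the minus strand of chr8:117858173-117887015 (GRCh37) and shares up to 576 exon bases with UTP23 and RAD21-AS1, whose reads cannot be separated because the library kit does not mark the strand.

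Among the other cohesin genes no member passed both thresholds, set at 0.05 for the adjusted p and at 0.5 in either direction for the log2 fold change. Of the 15 cohesin subunits and regulators, RAD21 was the only gene called. SMC1A came closest to a rise, with 23.0, 23.1 and 24.4 eRPKM in siCtrl and 32.4 and 31.7 eRPKM in siRAD21 OHT cells (log2 fold change 0.44). SMC3 was at 44.8 ± 1.58 eRPKM in siCtrl (SD, n = 3) and at 47.4 and 49.1 eRPKM in siRAD21 OHT cells. STAG2 was at 29.7 ± 1.61 against 30.8 and 30.6 eRPKM. NIPBL, which loads the ring, was at 15.6 ± 1.84 against 14.1 and 12.8 eRPKM. ESCO2, the acetyltransferase that makes cohesion lasting in S phase, was at 31.4 ± 0.717 against 23.0 and 23.2 eRPKM (-0.43). The count of genes called lower was 2 without siCtrl replicate 1 or without siRAD21 OHT replicate 1.

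In siRAD21 OHT against siCtrl cells 4056 genes were called, 27.1% of those tested. Of these, 1918 were higher (12.8%) and 2138 lower (14.3%), and the median log2 fold change over all genes was 0.000493. A log2 fold change past 1 was found in 613 higher and 720 lower genes, and one past 2 in 86 higher and 106 lower genes. With RAD21 silencing alone 23.7% of the genes were called (12.5% higher, 11.2% lower), and with OHT alone 17.9% (7.77% higher, 10.1% lower). These 3 comparisons share the siCtrl libraries. The SD of the log2 fold changes was 0.631 with both treatments, 0.548 with siRAD21 and 0.449 with OHT. The 5 libraries of siRAD21 OHT and siCtrl cells did not overlap in 73.3% of all genes (36.8% higher, 36.5% lower), so a gap between them is not by itself a mark of a gene. Gene lists are given below by their counts, to be read against these shares. No list was tested as a set.

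Among genes with at least 5 eRPKM in either group, CAMKV had the largest rise on the log2 scale. CAMKV, a kinase-like protein of neurons without kinase activity, had 0.845, 0.793 and 1.01 eRPKM in siCtrl cells and 30.3 and 31.9 eRPKM in siRAD21 OHT cells. Its log2 fold change was 4.52 (SE 0.125, Benjamini-Hochberg adjusted p = 5.45e-11 in limma). It stood at 16.6 ± 0.857 eRPKM with OHT alone and at 1.13 ± 0.152 eRPKM with siRAD21 alone. CAMKV lies on the minus strand of chr3:49895421-49907368 (GRCh37).

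G0S2, an inhibitor of fat breakdown, rose from 0.640, 0.934 and 1.25 eRPKM to 27.8 and 27.2 eRPKM (log2 fold change 4.30). OHT alone brought it to 16.7 ± 2.36 eRPKM. ADCYAP1R1, the receptor of the neuropeptide PACAP, rose by 3.96, CR2, a complement receptor, by 3.82, and PDE1B, a phosphodiesterase, by 3.44 on the log2 scale. These 3 genes were at 18.9 ± 0.5997, 13.7 ± 1.09 and 23.8 ± 1.20 eRPKM with OHT alone, and under 0.6 eRPKM in both siRAD21 libraries. Set directly against siCtrl OHT cells, ADCYAP1R1 differed by 0.20 and PDE1B by -0.23 on the log2 scale, and neither was called. FAM222A-AS1, an antisense RNA, rose by 3.65 on the log2 scale, on 3 to 7 reads in each siCtrl library. It shares no exon bases with another tested gene in the annotation (GENCODE, GRCh37). Overlaps with genes that were not tested were not looked for.

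IL24, a cytokine of the interleukin-10 family, was raised by either treatment and was highest with both. It had 0.778, 1.21 and 1.55 eRPKM in siCtrl and 27.1 and 25.3 eRPKM in siRAD21 OHT libraries, with 9.96 ± 0.711 eRPKM under siRAD21 and 4.86 ± 0.430 eRPKM under OHT. The log2 fold change against siCtrl was 4.02 (SE 0.205, Benjamini-Hochberg adjusted p = 9.00e-09 in limma). LINC01164, a non-coding RNA, had 1.12 ± 0.163 eRPKM in siCtrl cells, 20.6 and 21.4 eRPKM with both treatments and 11.4 ± 0.484 eRPKM with siRAD21. NPPB, which codes for the natriuretic peptide BNP, went from 2.57 ± 0.451 to 29.7 and 36.3 eRPKM, and LINC01405 from 2.71 ± 0.785 to 28.0 and 34.6 eRPKM. Both were already at 27.3 ± 0.337 and 28.9 ± 1.05 eRPKM with siRAD21 alone, and their differences between siRAD21 OHT and siRAD21 cells (0.27 and 0.12 on the log2 scale) were not called.

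**Figure D1:**
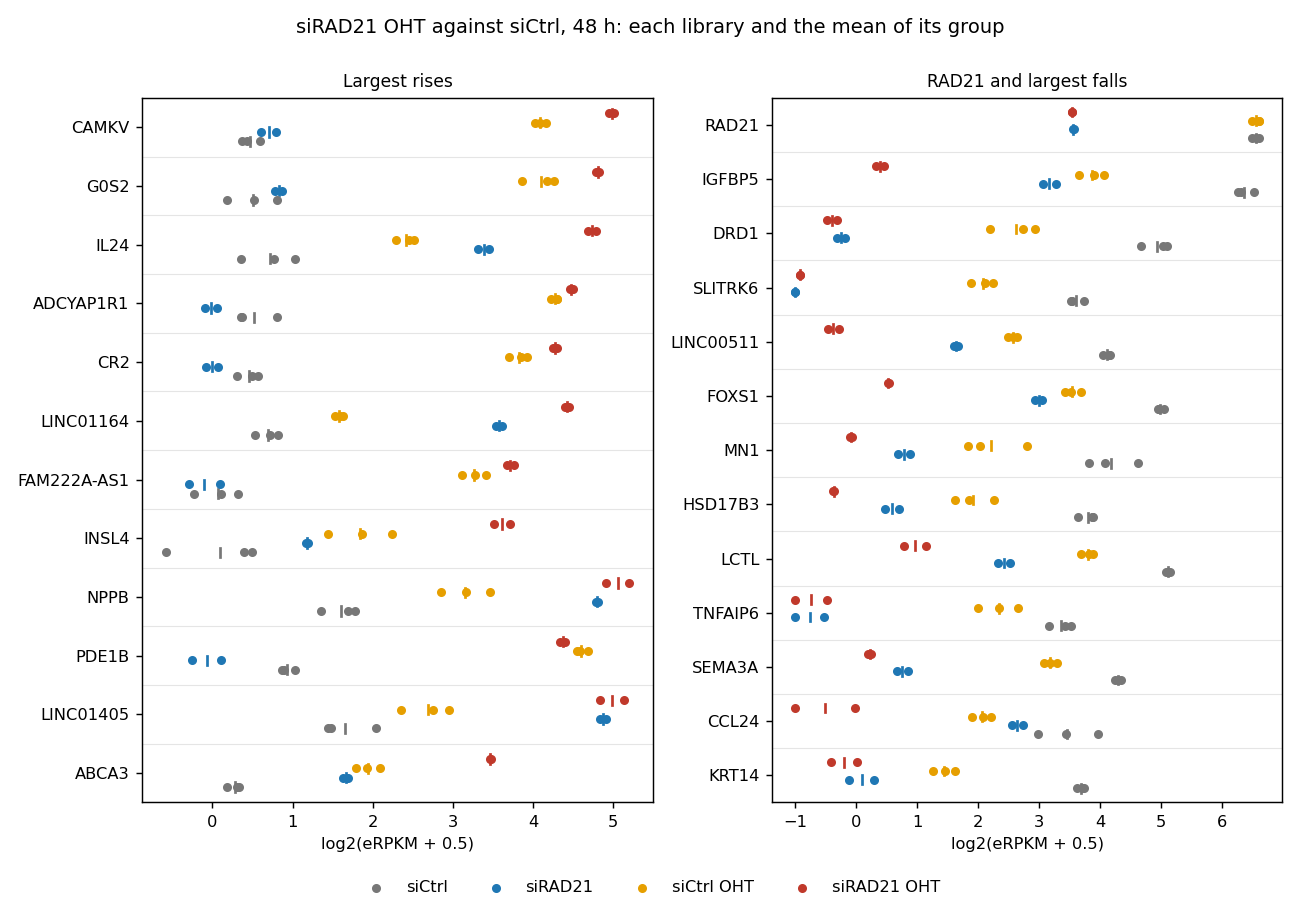
Levels of the 12 largest rises (left) and of RAD21 and the 12 largest falls (right) at 48 h, as log2(eRPKM + 0.5) on the horizontal axis. Each point is a library, coloured by group, and each bar is the mean of its group. IGFBP5 falls from 82.0 eRPKM in siCtrl to under 1 eRPKM in siRAD21 OHT cells, with both single treatments in between, while CAMKV and ADCYAP1R1 are high only in the 2 groups with OHT among the 4 plotted.

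The largest fall was that of IGFBP5, a secreted protein that binds insulin-like growth factors. It had 91.5, 75.6 and 78.7 eRPKM in the siCtrl libraries and 0.747 and 0.865 eRPKM in the siRAD21 OHT libraries, a log2 fold change of -5.97 (SE 0.148, Benjamini-Hochberg adjusted p = 1.85e-11 in limma). With siRAD21 alone it was at 8.47 ± 0.918 eRPKM (SD, n = 2) and with OHT alone at 14.2 ± 2.09 eRPKM (SD, n = 3). Each treatment had thus lowered it, and both together lowered it below either. IGFBP5 lies on the minus strand of chr2:217536828-217560272 (GRCh37).

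DRD1, a dopamine receptor, fell from 33.5, 32.1 and 25.0 eRPKM to 0.215 and 0.302 eRPKM (log2 fold change -5.33). Silencing RAD21 alone left 0.338 ± 0.0558 eRPKM, and the difference between siRAD21 OHT and siRAD21 cells, -0.14 on the log2 scale, was not called (Benjamini-Hochberg adjusted p = 0.65 in limma). SEMA3A, a repellent of growing axons, fell from 19.1 ± 0.584 to 0.677 and 0.648 eRPKM, and KRT14, a keratin of basal epithelium, from 12.4 ± 0.498 to 0.507 and 0.249 eRPKM. LINC00511, a non-coding RNA, fell by 4.49, FOXS1, a forkhead factor, by 4.46, MN1, a transcriptional coregulator, by 4.26 and LCTL, a protein of the klotho family, by 4.14 on the log2 scale. LCTL shares up to 369 exon bases with ZWILCH.

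For 4 of the 12 largest falls the siRAD21 OHT libraries held at most 3 reads each, so the fall is given as a ratio of summed reads with a 95% interval of the counting error (Clopper-Pearson). SLITRK6, a membrane protein of neurons, had 1 read in each siRAD21 OHT library against 1483 in the siCtrl libraries together, 473-fold lower (131 to 3908). It was at 0 in both siRAD21 libraries. HSD17B3, an enzyme of testosterone synthesis, had 3 reads in each and was 49.5-fold lower (22.6 to 136). TNFAIP6, a hyaluronan-binding protein, had 0 and 3 reads and was 91.2-fold lower (31.0 to 444). CCL24, a chemokine for eosinophils, had 2 reads in all and was 44.9-fold lower (12.2 to 375).

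A gene lowered or raised by both treatments beyond either alone has to pass the thresholds in the same direction against siCtrl, siRAD21 and siCtrl OHT cells. This held for 522 genes (3.48%), 161 higher (1.07%) and 361 lower (2.41%). The 3 comparisons share the siRAD21 OHT libraries. Against siRAD21 cells 27.2% of all genes were called (12% higher, 15.1% lower), and against siCtrl OHT cells 15% (7.85% higher, 7.14% lower).

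For naming, genes were kept with at least 5 eRPKM in siRAD21 OHT or siCtrl cells and no overlap with the other groups. Among the higher of these, ranked by the smallest of the 3 changes, INSL4, a peptide of the relaxin family, came out on top. It had 0.167, 0.812 and 0.904 eRPKM in siCtrl (1 to 6 reads per library), 12.6 and 10.9 eRPKM in siRAD21 OHT, 1.77 ± 0.0248 in siRAD21 and 3.19 ± 0.997 eRPKM in siCtrl OHT cells. ABCA3, a lipid transporter, rose from 0.742, 0.639 and 0.761 to 10.5 and 10.6 eRPKM, against 2.67 ± 0.0966 with siRAD21 and 3.34 ± 0.407 eRPKM with OHT. RGS2, which dampens signalling of G proteins, was the most abundant of the genes shown in this ranking. It went from 6.77, 10.3 and 11.1 to 51.7 and 48.7 eRPKM, with 15.2 ± 1.91 and 17.4 ± 2.23 eRPKM after the single treatments. Also among them were KLF15, a zinc finger factor (0.938 ± 0.125 to 7.06 and 6.45 eRPKM), IGDCC3, ACRC and LINC00925.

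Among the lower genes IGFBP5 and CCL24 had the largest of these smallest changes, followed by FOXS1, PDGFB, L1CAM, LINC00511, FXYD6 and TENM2. L1CAM, a cell adhesion molecule of neurons, had 46.8, 28.6 and 33.8 eRPKM in siCtrl and 2.35 and 2.72 eRPKM in siRAD21 OHT libraries, with 11.8 ± 1.77 and 18.1 ± 5.93 eRPKM after siRAD21 and OHT. FXYD6, a regulator of the sodium pump, fell from 28.5 ± 0.915 to 1.24 and 1.77 eRPKM. PDGFB, a growth factor, fell from 6.73 ± 1.72 to 0.181 and 0.386 eRPKM. TENM2, a teneurin of cell contacts, was 29.8, 20.05 and 25.2 eRPKM in siCtrl and 27.5 ± 3.63 eRPKM in siRAD21 cells, and fell to 4.45 and 4.71 eRPKM with both treatments. All genes named here as past both single treatments kept the 3 calls in every alternative that gave them a value.

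Whether the joint change departed from the sum of the single changes was tested as the siRNA by OHT interaction on the log2 scale, which was called for 5.5% of all genes (2.73% positive, 2.77% negative). For IGFBP5 the single changes were -3.20 and -2.49, and the interaction was -0.29 (Benjamini-Hochberg adjusted p = 0.384 in limma). It was called and positive for IGDCC3 (1.15), KLF15 (1.21) and ACRC (1.16). For TENM2 it was -1.69, for CCL24 -1.67 and for FOXS1 -1.03, each called in the direction of the fall. The genes named here were chosen by siRAD21 OHT values, which are part of the interaction, so the choice favours the direction of the change. INSL4, ABCA3, RGS2, LINC00925, PDGFB, L1CAM, LINC00511 and FXYD6 had interactions between -1.02 and 0.81 that were not called. The added 0.5 eRPKM narrows changes of low values, so interactions of genes that are low in a group depend on it. Such genes include IGFBP5 (0.747 and 0.865 eRPKM in siRAD21 OHT libraries), LINC00511 (0.320 and 0.225 eRPKM) and PDGFB (0.181 and 0.386 eRPKM). How far their interactions depend on it was not tested.

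**Figure D2:**
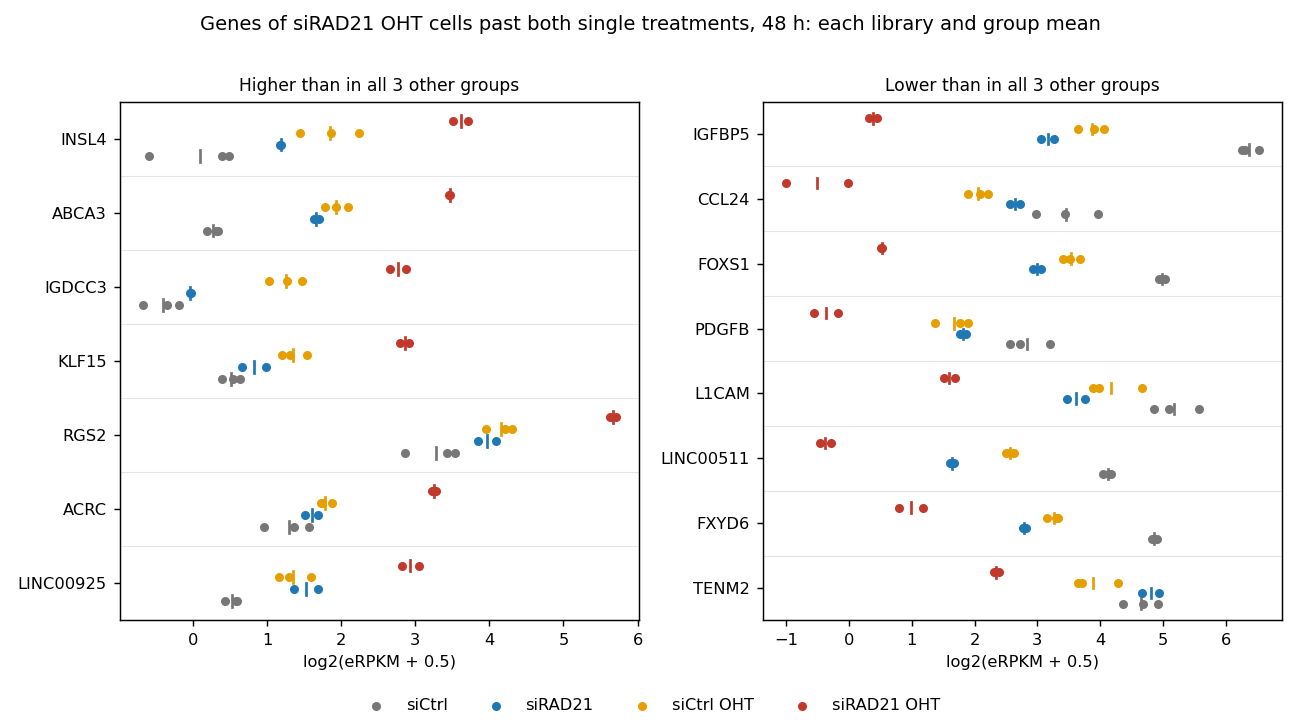
Levels of genes higher (left) and lower (right) in siRAD21 OHT cells than in each of the other groups at 48 h, as log2(eRPKM + 0.5). Points are libraries and bars are group means. The red siRAD21 OHT points stand outside the points of the other 3 groups in every row. This gap was a condition for choosing the genes, and it held for 24.7% of all tested genes (12% higher, 12.7% lower). ACRC and TENM2 are the rows where siRAD21 and siCtrl libraries overlap.

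Genes of DNA replication were near their siCtrl level in siRAD21 OHT cells. Of 26 genes of origin licensing and firing 0 were called higher and 1 lower (median log2 fold change -0.02), whereas 17 were lower with siRAD21 alone (median -0.68). Compared directly, 16 of the 26 were higher in siRAD21 OHT than in siRAD21 cells. Of 27 genes of the replication fork and of deoxynucleotide synthesis 0 were higher and 1 lower (median -0.08), against 19 lower with siRAD21 alone (median -0.56), and 12 were higher in siRAD21 OHT than in siRAD21 cells. With OHT alone none of either list was called by limma, at medians of 0.17 and 0.10.

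The upstream regions of CDT1 and MCM6, which code for a loader and for a subunit of the replicative helicase, are shown because they carry the E2F-type letters TTTCCCGC or TTTGGCGC, in capitals on either strand. The sequences are the 250 bases before the gene start in RefSeq (GRCh38.p14), chr16:88803539-88803788 for CDT1 and chr2:135876444-135876693 on the minus strand for MCM6.
CDT1: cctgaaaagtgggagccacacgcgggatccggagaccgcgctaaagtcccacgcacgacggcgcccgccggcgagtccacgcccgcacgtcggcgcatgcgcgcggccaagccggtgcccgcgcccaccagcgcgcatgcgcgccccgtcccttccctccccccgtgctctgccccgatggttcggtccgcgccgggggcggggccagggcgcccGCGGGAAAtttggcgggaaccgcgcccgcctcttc
MCM6: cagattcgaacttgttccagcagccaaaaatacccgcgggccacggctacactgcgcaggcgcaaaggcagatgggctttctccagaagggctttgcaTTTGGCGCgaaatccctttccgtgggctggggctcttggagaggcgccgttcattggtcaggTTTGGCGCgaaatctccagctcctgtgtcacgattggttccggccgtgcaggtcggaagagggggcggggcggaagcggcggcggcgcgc
Either motif was found on 1 of the strands in 6 of 22 matched genes of the origin list (27.3%) and in 6 of 22 of the fork list, against 3.08% of the 10435 tested genes with an upstream region in the table. A match of letters is not a binding site.

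CDT1 had 39.2, 34.7 and 37.1 eRPKM in siCtrl, 38.1 and 38.9 eRPKM in siRAD21 OHT and 21.7 ± 0.932 eRPKM in siRAD21 cells. MCM6 was at 26.5, 26.2 and 28.1 eRPKM in siCtrl and at 34.0 eRPKM in both siRAD21 OHT libraries, above the siCtrl libraries but short of the fold threshold (log2 fold change 0.33). With siRAD21 alone it was at 14.8 ± 0.147 eRPKM, and the rise from there to siRAD21 OHT was 1.18 on the log2 scale (Benjamini-Hochberg adjusted p = 2.54e-08 in limma). Its interaction, 0.86, was called. CDC6 was at 55.0 ± 1.86 eRPKM in siCtrl and 54.6 eRPKM in both siRAD21 OHT libraries, and CDC45, a part of the moving helicase, at 38.2 ± 1.41 eRPKM against 39.0 eRPKM in both.

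A few replication genes were lower with both treatments than in siCtrl cells. GINS1, another part of the helicase, fell from 37.7, 39.5 and 38.7 to 25.9 and 24.5 eRPKM (log2 fold change -0.61). It stood at 15.0 ± 0.811 eRPKM with siRAD21 and at 41.8 ± 2.08 eRPKM with OHT, and shares up to 259 exon bases with NINL. DNA2, a nuclease of the fork, fell from 25.4 ± 0.549 to 15.5 eRPKM in both libraries (-0.69). RRM2, the small subunit of ribonucleotide reductase, was at 74.9 ± 0.989 and at 59.8 and 57.4 eRPKM (-0.35, not called). PCNA, the sliding clamp, was at 47.2 ± 1.95 and at 52.7 and 51.0 eRPKM, and TYMS, which makes thymidylate, at 17.997 ± 0.381 and at 16.7 and 17.2 eRPKM. The origin list counted 2 lower genes without siCtrl replicate 1 and 3 without siRAD21 OHT replicate 1, and the fork list 2 without siCtrl replicate 1.

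Of 38 genes of G2 and mitosis, 35 had a log2 fold change below 0 and few passed the thresholds. In all 0 were called higher and 4 lower (median -0.18), and 12 were lower with siRAD21 alone (median -0.40). CENPE, a kinetochore motor, fell from 25.9, 26.0 and 25.1 to 15.1 and 15.0 eRPKM (log2 fold change -0.75), and CDC25C, a phosphatase that starts mitosis, from 15.5 ± 0.675 to 10.1 eRPKM in both libraries (-0.59). MKI67, the proliferation antigen, fell by 0.58 on the log2 scale, from 65.5, 55.6 and 56.1 to 39.5 and 39.2 eRPKM. The mitotic motor KIF11 fell by 0.52. The call of MKI67 was lost without siCtrl replicate 1 (-0.50) and that of KIF11 without siRAD21 OHT replicate 2 (-0.49). CCNB1 was at 71.3 ± 1.96 and at 68.8 and 68.7 eRPKM, CDK1 at 47.7 ± 1.86 and at 44.3 and 43.4 eRPKM, and PLK1 at 44.9 ± 1.09 and at 43.9 and 41.0 eRPKM. None of these 3 drivers of mitosis was called.

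Of 34 genes of the replication stress checkpoint and of recombination, most were not called. In all 5 were higher and 3 lower (median -0.10), and over all genes 12.8% were higher and 14.3% lower. This stands next to 1 higher and 16 lower with siRAD21 alone (median -0.41) and 3 higher and 0 lower with OHT alone (limma). CHEK2, a checkpoint kinase, rose from 16.9, 17.7 and 17.2 to 34.7 and 35.4 eRPKM (log2 fold change 1.00). OHT alone gave 28.6 ± 0.587 eRPKM and siRAD21 alone 14.7 ± 0.449 eRPKM, and CHEK2 shares up to 293 exon bases with HSCB. RAD50 rose by 0.72, ATR, the kinase that senses stalled forks, by 0.67 and PALB2, the partner of BRCA2, by 0.59 on the log2 scale. ATR had 8.15 ± 0.153 eRPKM in siCtrl, 13.5 and 13.1 eRPKM in siRAD21 OHT, 9.65 ± 0.293 eRPKM in siRAD21 and 8.20 ± 0.560 eRPKM in siCtrl OHT cells.

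Among the lower checkpoint genes were FANCM (-0.78) and CLSPN, the adaptor between ATR and CHEK1 (-0.66), which fell from 24.2 ± 0.654 to 15.3 and 15.1 eRPKM. RAD9A fell by 0.57 on the log2 scale, but its call was lost without siCtrl replicate 3 (-0.47) and without siRAD21 OHT replicate 1 (-0.40). CHEK1 was at 18.8 ± 1.39 and at 19.8 and 20.03 eRPKM, and BRCA1 at 18.6 ± 0.814 and at 17.2 and 17.3 eRPKM. The count of lower genes was 5 without siCtrl replicate 1.

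Replication-dependent histones could be tested for 47 of 69 genes, of which 4 were called higher and 1 lower (median -0.03). HIST1H2BB rose from 3.33, 2.55 and 2.15 to 10.6 and 11.6 eRPKM (log2 fold change 1.88). HIST1H2AA, HIST1H2BA and HIST1H3C, which rose by 1.91, 1.74 and 1.39 on the log2 scale, rest on 0 to 10 reads in each siCtrl library. HIST2H2BE fell from 53.3 ± 0.531 to 36.5 and 36.3 eRPKM. The count of lower histone genes was 2 without siRAD21 OHT replicate 1 and 3 without replicate 2. Of the 47 tested, 31 had more than 50 eRPKM in siCtrl cells, nearer the limit set by duplicate removal, so changes of these genes may be understated. Histone genes are near copies of each other, and how the counting split reads between them is uncertain.

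Of 50 nucleolar genes of ribosome production, 21 were called higher and 0 lower with both treatments (median log2 fold change 0.45). With OHT alone it was 29 and 0 (median 0.53), and with siRAD21 alone 1 and 3 (median -0.18). Against siRAD21 cells 35 were higher and 0 lower, and against siCtrl OHT cells 0 of the 50 were called in either direction by limma, at a median of -0.02. RRP12, an export factor for ribosome precursors, rose from 12.8, 11.6 and 12.7 to 34.0 and 34.1 eRPKM (log2 fold change 1.43, Benjamini-Hochberg adjusted p = 1.08e-07 in limma). It was at 28.5 ± 2.79 eRPKM with OHT and at 19.0 ± 1.51 eRPKM with siRAD21. NOP14 rose by 1.13, DDX10 by 0.98 and NOP16 by 0.93 on the log2 scale, and POLR1B, a subunit of RNA polymerase I, from 24.0 ± 1.38 to 40.2 and 38.9 eRPKM (0.71). NOP14 shares up to 737 exon bases with NOP14-AS1, and NOP16 up to 344 with ARL10 or HIGD2A. NOP56 (0.35) and NCL (0.17) were below the fold threshold, at 102 eRPKM in both and at 110 and 108 eRPKM in the siRAD21 OHT libraries.

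Of 20 genes of purine, pyrimidine and polyamine synthesis 5 were called higher and 0 lower (median 0.31), next to 6 and 0 with OHT alone (median 0.38) and 0 and 3 with siRAD21 alone (median -0.28). The upstream regions of DHODH, an enzyme of pyrimidine synthesis, and PPAT, which starts purine synthesis, are shown because both genes rose and both regions hold the E-box CACGTG, in capitals. They are chr16:72008494-72008743 for DHODH and chr4:56435616-56435865 on the minus strand for PPAT (RefSeq, GRCh38.p14).
DHODH: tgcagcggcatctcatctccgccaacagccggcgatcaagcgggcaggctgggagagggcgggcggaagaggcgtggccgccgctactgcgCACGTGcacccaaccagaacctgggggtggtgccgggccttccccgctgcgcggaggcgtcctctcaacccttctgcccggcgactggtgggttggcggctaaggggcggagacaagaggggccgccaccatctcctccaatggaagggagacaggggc
PPAT: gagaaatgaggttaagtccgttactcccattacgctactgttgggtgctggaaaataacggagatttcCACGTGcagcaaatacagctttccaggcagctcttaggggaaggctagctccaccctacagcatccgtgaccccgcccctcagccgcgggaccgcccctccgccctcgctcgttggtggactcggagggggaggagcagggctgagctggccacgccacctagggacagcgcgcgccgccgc
CACGTG reads the same on both strands. It was found in 8.8% of the tested genes with an upstream region in the table, in 10.2% of those called higher and 7.46% of those called lower. The share was 4 of 17 in the nucleotide and polyamine list (23.5%) and 4 of 42 in the nucleolar list (9.52%). It was largest among the lists searched in the HOX genes, 4 of 13 (30.8%), whose median log2 fold change was -0.48. Named genes with the motif included rises such as CR2 and falls such as DRD1 and FXYD6.

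DHODH rose from 6.68, 7.41 and 8.86 to 17.3 and 15.6 eRPKM (log2 fold change 1.06) and was at 15.6 ± 1.42 eRPKM with OHT alone. PPAT rose from 38.9, 42.4 and 38.8 to 61.5 and 62.3 eRPKM (0.62), next to 58.6 ± 2.42 with OHT and 32.3 ± 0.378 eRPKM with siRAD21. IMPDH1, which leads to guanine nucleotides, rose by 0.73. ADSS, which leads to adenine nucleotides, rose by 0.65 and was at 19.96 ± 0.932 eRPKM with OHT alone, close to the 18.8 ± 1.65 eRPKM of siCtrl cells. CAD, which starts pyrimidine synthesis, rose by 0.54, and its call was lost without siCtrl replicate 2 (0.41), with quantile normalization (0.48) and with only the 48 h groups in the fit. ODC1, the key enzyme of polyamine synthesis, was at 85.1 ± 4.32 and at 115 and 112 eRPKM (0.41, not called).

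Within the Myc network itself, 2 of 10 genes were called higher and 2 lower. MYC reads fell from 54.6, 49.9 and 52.3 to 36.0 and 32.9 eRPKM (log2 fold change -0.59), and reads of the endogenous gene cannot be told apart from those of MycER. MYC was at 57.0 ± 0.812 eRPKM with siRAD21 and at 44.9 ± 3.99 eRPKM with OHT. MXI1, an antagonist of Myc, rose from 17.7 ± 0.368 to 37.5 and 39.1 eRPKM (1.09). MXD1, another antagonist, rose by 0.55, but its call was lost without siCtrl replicate 3 (0.49), without siRAD21 OHT replicate 2 (0.46) and with a pseudocount of 1 (0.47). MXD3 fell by 0.75 and shares up to 1148 exon bases with PRELID1 or RAB24. MAX was at 26.2 ± 0.718 and at 34.6 and 33.6 eRPKM (0.37).

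Cholesterol synthesis genes were mostly not called, with 3 of 22 higher and 1 lower (median 0.10). PMVK rose by 0.88 and HMGCS1, an early enzyme of the pathway, by 0.78 on the log2 scale. INSIG1, a brake on sterol synthesis, fell from 30.1, 32.0 and 31.6 to 18.02 and 15.3 eRPKM (-0.88), with 14.6 ± 0.177 eRPKM under siRAD21.

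Of 32 tested p53 targets, 18 were called higher and 1 lower (median log2 fold change 0.57), next to 17 and 0 with siRAD21 (median 0.57) and 4 and 3 with OHT (median 0.09). The 4 became 2 without siCtrl replicate 1 or without siCtrl OHT replicate 2. Against siCtrl OHT cells 16 were higher and 0 lower, and against siRAD21 cells 0 were higher and 4 lower. GDF15, a stress cytokine, rose from 6.59, 6.74 and 5.56 to 24.3 and 22.5 eRPKM (1.82), and was at 23.3 ± 2.74 eRPKM with siRAD21 and 14.8 ± 2.36 eRPKM with OHT. PLK3 rose by 1.51, SESN2, a sestrin of the stress response, by 1.34 and BTG2, an antiproliferative factor, by 1.22. CDKN1A, the cell cycle inhibitor p21, rose from 77.8 ± 1.59 to 114 and 117 eRPKM (0.57). Its call was lost with quantile normalization (0.48). MDM2, which degrades p53, was at 50.4 ± 0.337 and at 58.1 and 57.7 eRPKM (0.20, not called). TP53I11 fell from 22.8 ± 1.91 to 12.9 and 11.9 eRPKM (-0.85), where OHT alone gave 14.2 ± 0.919 eRPKM.

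**Figure D3:**
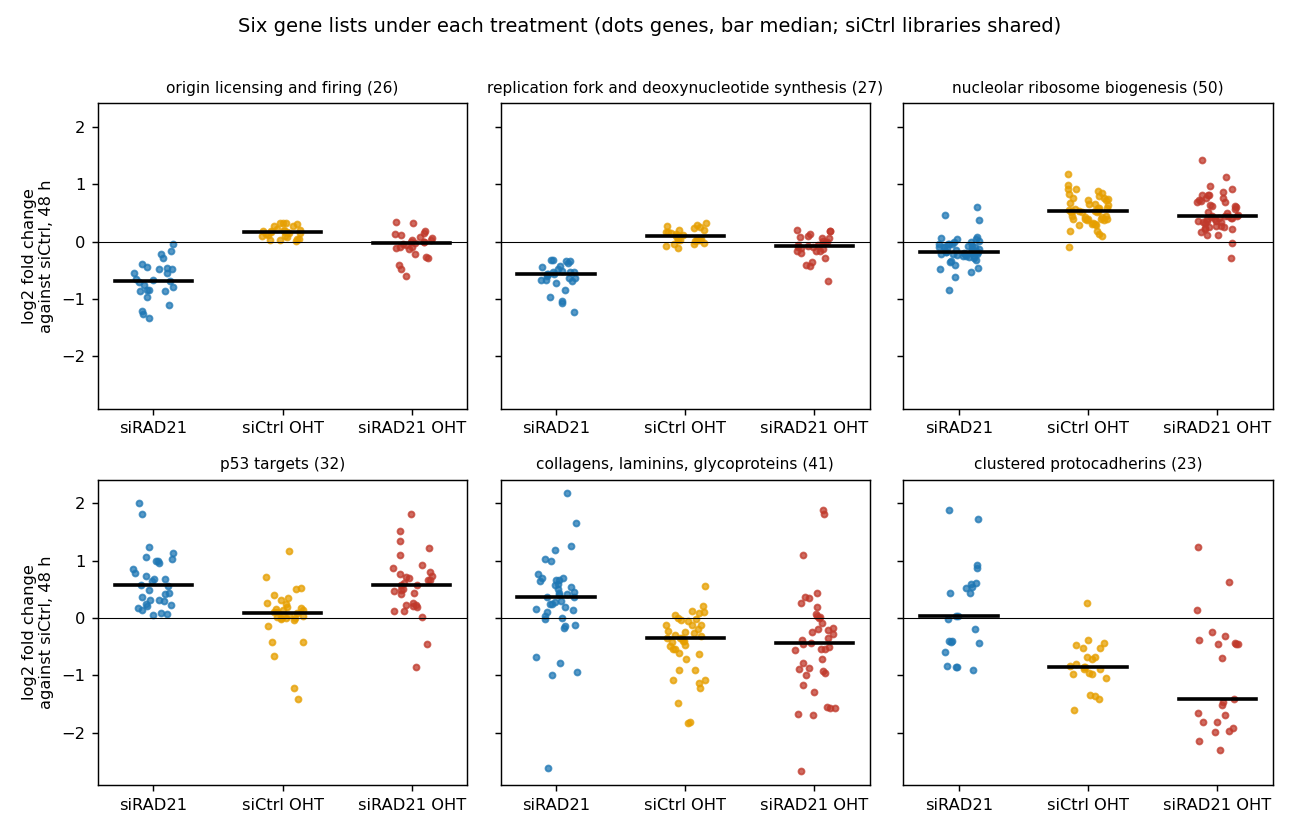
Log2 fold changes against siCtrl at 48 h of the members of 6 gene lists (number tested in parentheses) with siRAD21, OHT and both. Points are genes and bars are medians, and all 3 columns share the siCtrl libraries. The origin list has medians of -0.68, 0.17 and -0.02, the nucleolar list -0.18, 0.53 and 0.45, and the p53 targets 0.57, 0.09 and 0.57.

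In the BCL2 family, which decides on cell death, 3 of 16 genes were called higher and 1 lower. BCL2A1, an inhibitor of death, rose from 0.435, 0.636 and 0.885 to 3.84 and 4.54 eRPKM (log2 fold change 2.04). The death-promoting BIK and BBC3 rose by 1.30 and 1.10, BBC3 from 19.2 ± 2.90 to 42.4 and 40.7 eRPKM, with 38.5 ± 2.05 eRPKM under siRAD21. BMF, also death-promoting, fell from 11.99, 10.1 and 13.3 to 0.889 and 0.895 eRPKM (-3.13, Benjamini-Hochberg adjusted p = 3.41e-08 in limma). BMF was at 6.39 ± 0.327 eRPKM with siRAD21 and 2.63 ± 0.453 eRPKM with OHT, and both treatments together were below either. BCL2L11 was at 9.58 ± 0.186 and at 6.95 and 6.38 eRPKM (-0.49, not called), and was called lower in 5 alternatives, among them without siCtrl replicate 1 (-0.51) and without siRAD21 OHT replicate 1 (-0.55). MCL1 was at 84.2 ± 2.54 and at 94.5 and 94.8 eRPKM. The count of lower genes was 3 without siCtrl replicate 1 and 2 without either siRAD21 OHT replicate.

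Of 28 genes of ATF4 and unfolded protein stress 10 were called higher and 0 lower by limma (median 0.29), against 4 and 9 with siRAD21 (median -0.22) and 3 and 0 with OHT (median 0.10). One gene was called lower without siCtrl replicate 1, without siCtrl replicate 2 or without siRAD21 OHT replicate 2. TRIB3, a pseudokinase of the stress response, rose from 16.1, 17.98 and 19.0 to 46.7 and 47.4 eRPKM (log2 fold change 1.39). ATF3 rose by 1.21, from 12.4, 15.7 and 26.1 to 40.6 and 40.2 eRPKM, and DDIT3, the factor CHOP, by 0.96. ASNS, asparagine synthetase, was at 44.5 ± 1.36 and at 62.3 and 59.5 eRPKM (0.45, not called), with 26.2 ± 1.43 eRPKM under siRAD21. HSPA5, the chaperone of the endoplasmic reticulum, was at 48.8 ± 2.87 and at 47.8 and 46.0 eRPKM.

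Genes of the extracellular matrix were called lower more often than higher. Of 41 collagens, laminins and matrix glycoproteins 3 were called higher and 18 lower (median log2 fold change -0.45). With siRAD21 alone it was 15 higher and 5 lower (median 0.36), and with OHT alone 1 higher and 14 lower (median -0.35). Against siRAD21 cells 0 were higher and 25 lower. TNC, tenascin C, fell from 46.4, 34.8 and 38.0 to 12.2 and 13.6 eRPKM (-1.58), below both siRAD21 (22.6 ± 0.715 eRPKM) and OHT (27.0 ± 4.01 eRPKM). TGFBI fell from 54.5, 55.8 and 53.3 to 15.997 and 17.3 eRPKM (-1.68), with 33.8 ± 0.9698 and 50.3 ± 1.27 eRPKM after the single treatments. MGP, an inhibitor of calcification, had 2 reads in both siRAD21 OHT libraries together against 143 in siCtrl, 45.6-fold lower (12.4 to 380).

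FN1, fibronectin, fell from 41.8 ± 4.12 to 21.9 and 22.8 eRPKM (-0.88), and was at 49.5 ± 0.459 eRPKM with siRAD21 and 18.9 ± 2.96 eRPKM with OHT. COL5A1 fell by 1.70 on the log2 scale. COL1A1, a chain of the main bone collagen, had 59.1, 28.1 and 34.1 eRPKM in siCtrl and 16.7 eRPKM in both siRAD21 OHT libraries (-1.18). Its call was lost without siCtrl replicate 1 (-0.87), which held the highest value, and with 4 other settings. THBS1, thrombospondin, fell by 0.79, and was at 38.7 ± 1.69 eRPKM with siRAD21. The 3 rises were LUM, a small proteoglycan (6.64 ± 1.25 to 24.6 and 26.4 eRPKM, 1.88), COL13A1 (1.81) and LAMA1 (1.09), which had 31.3 ± 2.44, 18.7 ± 0.817 and 24.3 ± 0.637 eRPKM with siRAD21 alone.

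Of 24 matrix proteases, inhibitors and crosslinkers 2 were called higher and 9 lower (median -0.31). MMP3, a protease, rose from 10.5, 16.5 and 14.9 to 51.1 and 50.9 eRPKM (log2 fold change 1.86), above siRAD21 (28.6 ± 0.882 eRPKM) and OHT (17.5 ± 1.61 eRPKM). ADAMTS12 rose by 0.84. TIMP2, an inhibitor of these proteases, fell from 46.6, 36.4 and 38.9 to 15.9 and 16.4 eRPKM (-1.30), MMP14 by 1.26, and the crosslinking enzymes LOXL1 and LOXL4 by 1.14 and 1.06. MMP2 fell by 0.67 and TIMP3 by 0.66. LOX was at 12.8 ± 0.377 and at 10.3 and 10.7 eRPKM (-0.28, not called), with 22.0 ± 1.51 eRPKM under siRAD21 and 7.98 ± 0.889 eRPKM under OHT.

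Of 16 integrins, the receptors for the matrix, 2 were called higher and 5 lower. ITGB8 fell from 31.6, 28.2 and 26.6 to 6.70 and 7.44 eRPKM (-1.95), with 10.6 ± 0.759 eRPKM under OHT. ITGB3 fell by 1.93, ITGA7 by 0.84 and ITGAV by 0.64, and ITGB4 by 0.70, a call lost without siCtrl replicate 1 (-0.57) and with only the 48 h groups in the fit. ITGB2 rose by 0.99, from 0.497 ± 0.0868 to 1.38 and 1.58 eRPKM, and ITGA6 by 0.59, which was lost with quantile normalization (0.49). ITGB1, the most abundant of the named integrins, was at 113 ± 3.96 and at 93.7 and 93.5 eRPKM (-0.27, not called).

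Clustered protocadherins, adhesion proteins of neurons whose promoters lie in 3 neighbouring arrays, were tested for 23 of 56 genes. Of these 2 were called higher and 13 lower (median -1.42). With siRAD21 alone it was 8 higher and 5 lower (median 0.03), or 8 lower without siCtrl replicate 2, and with OHT alone 0 higher and 19 lower (median -0.85). Against siRAD21 cells 0 were higher and 19 lower, and 9 of the 23 were below both single treatments. PCDHB8 fell from 10.7, 8.70 and 10.3 to 1.49 and 1.69 eRPKM (-2.31), with 6.33 ± 0.0535 eRPKM under siRAD21 and 4.74 ± 0.398 eRPKM under OHT. PCDHB14 fell by 2.14, PCDHB12 by 2.00 and PCDHB18P by 1.97. PCDHB2 rose from 2.71, 2.49 and 3.77 to 7.86 and 7.35 eRPKM (1.23), and was at 12.2 ± 0.507 eRPKM with siRAD21 and 2.15 ± 0.201 eRPKM with OHT. The rise of PCDHA12 (0.63), which shares exons with other members of its array, was lost without siRAD21 OHT replicate 2 (0.44), leaving 1 higher gene. The genes resemble each other, and how reads were split between them is uncertain.

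HOX genes, which set position along the body axis, were tested for 28 of 39 genes, with 3 called higher and 14 lower (median -0.48). OHT alone gave 2 higher and 13 lower (median -0.46), and siRAD21 alone 6 higher and 8 lower (median -0.23), the latter 5 without siCtrl replicate 3. Below both single treatments were 6 of the 28. HOXC11 fell from 8.87, 10.2 and 11.2 to 1.93 and 2.35 eRPKM (-1.9995), with 4.75 ± 0.226 and 5.01 ± 0.642 eRPKM after siRAD21 and OHT. HOXC6 fell by 1.90, HOXD11 by 1.90 and HOXB3 by 1.57, and all 3 share exon bases with neighbouring HOX genes. HOXA3 rose from 0.9994 ± 0.233 to 2.86 and 4.01 eRPKM (1.404) and HOXC8 from 6.20 ± 0.518 to 12.3 eRPKM in both (0.94). The rise of HOXD9 (0.60) was lost without siRAD21 OHT replicate 2 (0.38).

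**Figure D4:**
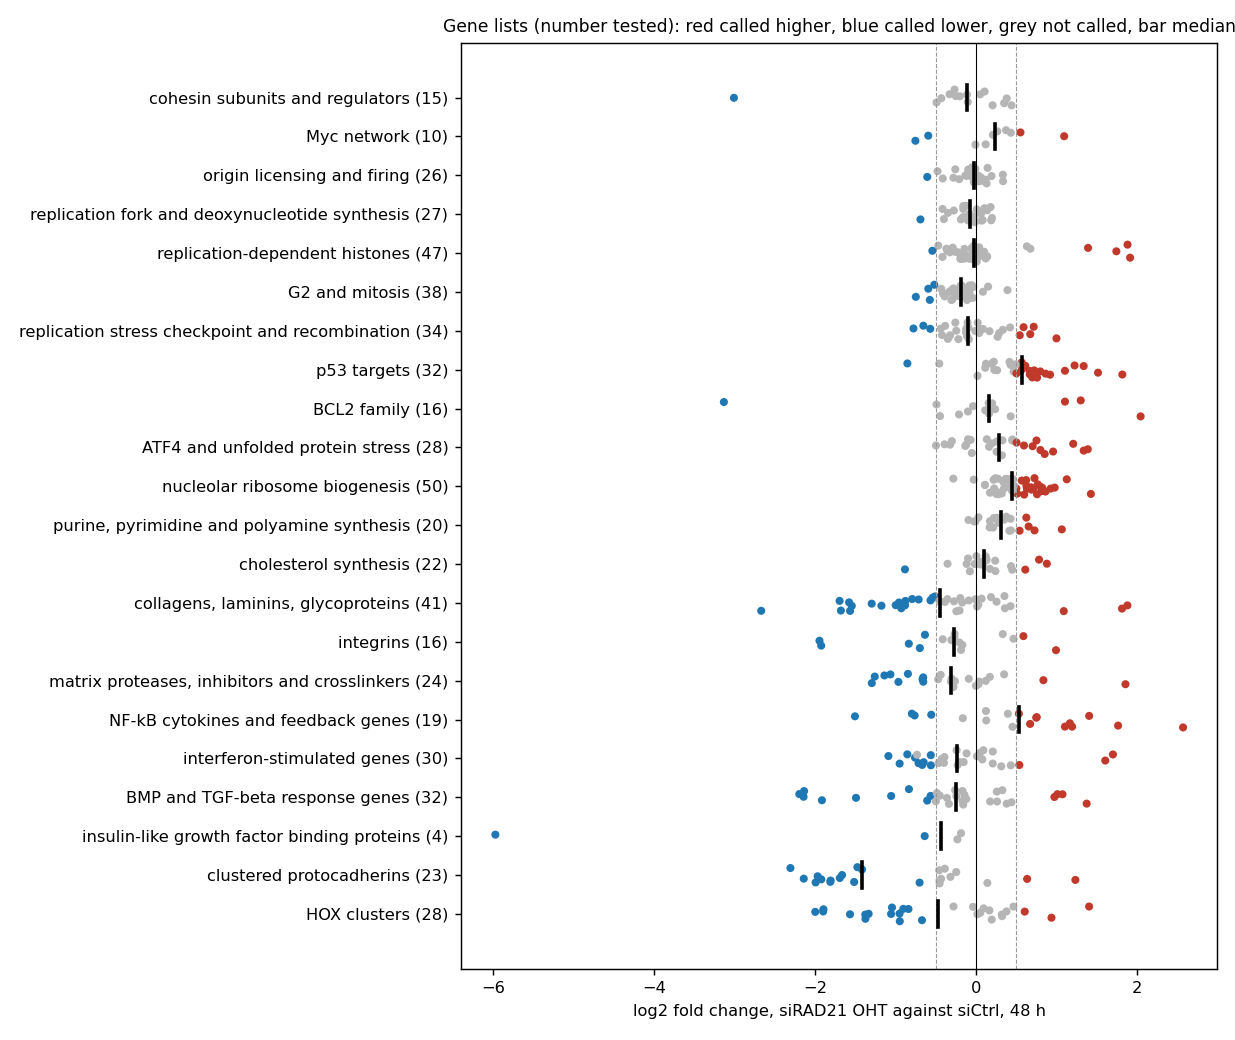
Log2 fold changes of siRAD21 OHT against siCtrl cells at 48 h for the members of 22 gene lists (number tested in parentheses). Each point is a gene, red if called higher, blue if called lower and grey if not called, the bars are medians and the dashed lines mark 0.5 and -0.5. The clustered protocadherins have the lowest median (-1.42) and the p53 targets the highest (0.57).

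Ligands and modulators of TGF-beta and BMP signalling, which control matrix and bone formation, were called higher in 4 and lower in 9 of 32 cases (median -0.25), and the share called higher is close to that over all genes. In this list 1 was above and 5 below both single treatments. TGFB2, a ligand, fell from 19.1, 18.6 and 18.9 to 3.67 and 3.78 eRPKM (log2 fold change -2.20, Benjamini-Hochberg adjusted p = 6.69e-11 in limma). With siRAD21 it was at 8.85 ± 0.169 eRPKM and with OHT at 15.7 ± 0.735 eRPKM, and the interaction (-0.89) was called. TGFB2 shares up to 701 exon bases with TGFB2-AS1. INHBA, which codes for activin A, fell from 55.9, 61.2 and 50.8 to 12.5 and 11.995 eRPKM (-2.15), where OHT alone left 57.0 ± 3.03 eRPKM and siRAD21 alone 28.8 ± 1.398 eRPKM. Its interaction was -1.23. LTBP1, which stores TGF-beta in the matrix, fell by 2.14, and SMAD6, an inhibitor of BMP signals, by 1.92. INHBE rose by 1.37, BMP2 by 1.07, BMP6 by 1.01 and FST, which traps activin, by 0.97. ID1 was at 97.7 ± 3.61 and at 87.5 and 87.0 eRPKM.

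Of the 5 osteoblast markers tested 0 were called higher and 4 lower by limma. RUNX2, the factor that defines the lineage, fell from 8.497, 6.51 and 7.44 to 2.04 and 1.90 eRPKM (-1.69), below siRAD21 (5.71 ± 0.733 eRPKM) and OHT (4.003 ± 0.872 eRPKM). SPP1, osteopontin, fell from 13.3 ± 1.08 to 7.54 and 7.02 eRPKM (-0.82), with 4.47 ± 0.587 eRPKM under OHT. ALPL, alkaline phosphatase, fell by 0.66, but its call was lost without siCtrl replicate 2 (-0.52), without siRAD21 OHT replicate 1 (-0.40) and with quantile normalization (-0.58). COL1A1 was the other. SPARC, named here after its values were seen, was at 76.4 and 75.9 eRPKM on average. Among the insulin-like growth factor binding proteins IGFBP4 was the only gene called besides IGFBP5. It fell by 0.64, and this was lost without siCtrl replicate 3 (-0.56) and with a pseudocount of 1 (-0.45).

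NF-kB cytokines and feedback genes had 10 of 19 members called higher and 4 lower (median log2 fold change 0.53), next to 8 and 1 with siRAD21 (median 0.46) and 4 and 0 with OHT (median 0.29). TRAF1, an adaptor of TNF receptors, rose from 2.89, 3.01 and 2.96 to 19.4 and 20.7 eRPKM (2.57, Benjamini-Hochberg adjusted p = 1.34e-10 in limma), above siRAD21 (9.94 ± 0.180 eRPKM) and OHT (11.4 ± 0.801 eRPKM). Its interaction was -0.81, so the joint rise was smaller than the sum of the single rises on the log2 scale. CXCL8, which attracts neutrophils, rose from 10.4, 14.7 and 6.96 to 36.0 and 35.8 eRPKM (1.76), BIRC3 by 1.41 and CXCL3 by 1.19. LIF fell from 43.7 ± 3.56 to 24.6 and 25.2 eRPKM (-0.80), BCL3 by 0.76 and CCL2, which attracts monocytes, by 0.56. CSF2 fell by 1.51 and rests on 1 and 5 reads in the siRAD21 OHT libraries. NFKBIA, the inhibitor of NF-kB, was at 54.3 ± 4.28 and at 74.0 and 74.4 eRPKM (0.45, not called).

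Of 30 interferon-stimulated genes 3 were called higher and 9 lower (median -0.24). OHT alone gave 1 higher and 12 lower (median -0.46), and siRAD21 alone 6 higher and 2 lower (median 0.25), the latter 4 without siCtrl replicate 1. IFIT2 and IFIT3 rose from 1.97 ± 0.138 to 6.85 and 8.22 eRPKM (1.70) and from 5.65 ± 0.458 to 17.5 and 18.9 eRPKM (1.60), while IFIT1 fell from 8.82 ± 0.817 to 4.05 and 4.57 eRPKM (-0.95). SAMD9L fell by 1.09, STAT2, a factor of the interferon response, by 0.86 and OAS3 by 0.76. SAMD9L was at 11.2 ± 0.842 eRPKM with siRAD21 and 1.98 ± 0.260 eRPKM with OHT, on either side of its 5.67 ± 0.766 eRPKM in siCtrl cells. The rise of IFITM2 (0.54) was lost without siCtrl replicate 3 (0.50) and with quantile normalization (0.45). ISG15 was at 34.9 ± 1.53 and at 29.9 and 32.7 eRPKM and was not called.

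Markers of other cell types stayed low. EPCAM, of epithelium, was called higher, from 4.65 ± 0.408 to 7.30 and 6.82 eRPKM (0.56), a call lost without siCtrl replicate 1 (0.50), and stood at 11.5 ± 1.28 eRPKM with OHT alone. KRT5, of basal epithelium, fell from 1.76 ± 0.0984 to 0.295 and 0.181 eRPKM (-1.61), along with KRT14. LYZ was not called. Their part in the other results was not tested.

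The same treatment at 24 h, where siCtrl cells have libraries of their own (n = 2 against n = 2), changed fewer genes, with 1963 called (13.1%, 6.56% higher and 6.53% lower). Of the 4056 genes called at 48 h, 1574 (38.8%) were called in the same direction at 24 h and 22 in the opposite one. The change at 48 h differed from that at 24 h in 1267 genes (8.45%, 3.37% upward and 5.08% downward). RAD21 was lower by 2.14 on the log2 scale at 24 h and by 3.01 at 48 h. IGFBP5 had 30.1 and 33.0 eRPKM in siCtrl and 6.404 and 6.85 eRPKM in siRAD21 OHT libraries at 24 h (log2 fold change -2.17). In siCtrl cells at 48 h it was at 82.0 eRPKM on average, so its siCtrl level differed between the times as well. CAMKV had already risen at 24 h, to 13.6 and 13.7 eRPKM, whereas INSL4 had 0.839 and 1.76 eRPKM and was not called (0.27). CCL24 had 6.78 and 7.20 eRPKM in siCtrl and 5.34 and 5.39 eRPKM in siRAD21 OHT libraries at 24 h and was not called either (-0.35).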

How the data were processed

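RNA was depleted of ribosomal RNA and sequenced with an unstranded kit. Exon overlaps with other tested genes are not given above for every gene named. Among others, MAX shares up to 822 exon bases with tested genes, THBS1 448, LOXL1 335, ITGB2 303 and CDC25C 293. According to the submitters' processing notes, reads were aligned to hg19 with TopHat2 2.0.8 and counted with featureCounts 1.4.5. The authors removed PCR duplicates and deposited eRPKM, an RPKM value over exons, for each library. Their own test needs counts, which the eRPKM values do not give directly. The main fit therefore used limma 3.58.1 (R 4.3.3) on log2(eRPKM + 0.5), and reads recovered from the values served for an alternative. Fold changes on this scale understate the changes of low genes.

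Genes with a mean of at least 1 eRPKM over the 18 libraries (14993 of 23399) were fitted with the means of 8 groups and a variance trend. Both siRAD21 OHT libraries at 48 h were averaged to 1 sample. Benjamini-Hochberg adjustment ran over all tested genes, with thresholds of 0.05 and of 0.5 on the log2 scale. The low values were whole multiples of 1 read, and whole reads could be recovered for all 14993 tested genes. A match within about 0.02 of a whole read was the condition for recovery, so it is no test of the recovered reads. They gave the read counts named in the text and a fit with voom, in which 4486 genes were called. Intervals cover counting error only.

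The members and gene lists were chosen with earlier results of these data known. Named were RAD21 and the 12 largest called rises and falls with at least 5 eRPKM in a group and no overlap. Also named were the 8 genes in each direction furthest past both single treatments. These had at least 5 eRPKM in siRAD21 OHT or siCtrl cells and no overlap with the other groups at 48 h. In each list its key members and up to 4 called members in each direction were named. A few genes that this rule names are not reported here. Of 557 list genes, 554 matched by symbol and 3 by an older symbol. On simulated data for the comparison with siCtrl (14624 genes), 43 of 44 genes changed by -2, 37 of 50 by -1, 49 of 53 by 1 and 53 of 53 by 2 on the log2 scale were called, with 3 unchanged genes. The simulation gave every gene the same spread and every group the siCtrl means apart from the changed genes. It had no duplicate removal, so its rates need not hold for the real libraries. Alternatives were other pseudocounts, filters and normalizations, other variance models, the libraries of the pair as replicates, a replicate block and each library left out. The voom fit and a fit with duplicate removal undone were chosen after seeing the data. Figures were drawn with Python 3.11.15 and matplotlib 3.10.9.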

Additional observations from a re-analysis of the deposited data

Results flagged for a closer look

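The effect of both treatments at 48 h was set against the effect at 24 h, each against the siCtrl cells of its own time, and the difference was tested in limma with Benjamini-Hochberg adjustment. It passed the thresholds for RAD21 (-0.874 on the log2 scale) and for 28 other genes named as the largest changes or as furthest past both single treatments. Among the largest rises the difference was called for CAMKV (1.32), G0S2 (1.85), IL24 (2.91), LINC01164 (1.68), INSL4 (3.25), NPPB (1.25), LINC01405 (2.16) and ABCA3 (0.975). Among the other genes above both single treatments it was called for IGDCC3 (1.17), KLF15 (1.03), RGS2 (1.43), ACRC (1.37) and LINC00925 (1.21). Among the largest falls it was called for IGFBP5 (-3.81), DRD1 (-2.01), SLITRK6 (-2.94), LINC00511 (-1.75), FOXS1 (-1.67), MN1 (-1.39), HSD17B3 (-2.43), LCTL (-2.39), SEMA3A (-2.46), CCL24 (-3.53) and KRT14 (-3.12). Among the other genes below both single treatments it was called for PDGFB (-1.61), L1CAM (-2.52), FXYD6 (-2.5) and TENM2 (-1.12). Each of these differences has the sign of the change at 48 h. The genes were chosen by their changes at 48 h, which are part of the difference, so the choice favours this sign. A difference also holds any change of the siCtrl cells between the times, as for IGFBP5. The share of all tested genes with a called difference is given with the results at 24 h. The difference was not called for ADCYAP1R1, CR2, FAM222A-AS1, PDE1B and TNFAIP6.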

How the results depend on the processing

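With a mean of at least 5 eRPKM, which tests fewer genes, 1341 genes were lower in siRAD21 OHT than in siCtrl cells and 317 were past both single treatments, 97 higher and 220 lower. Over all alternatives 2736 to 4623 genes were called, 1395 to 2193 of them higher, and RAD21 lay between -3.41 and -2.91 on the log2 scale. Leaving out each library in turn gave 3978 to 4140 called genes (1850 to 1971 higher, 2040 to 2205 lower), 462 to 582 past both single treatments (143 to 173 higher, 319 to 412 lower) and -3.04 to -2.98 for RAD21. With the replicate number as a block 4237 genes were called, 2006 higher and 2231 lower. Whether the numbers pair the libraries could not be settled, since the siRAD21 OHT pair differs by no more than sampling noise and its deviations (r of -0.00107 and -0.0205 with those of the siCtrl libraries of the same number) carry little else. No named gene that was called in the main fit or in an alternative changed sign between them. Small sign changes of genes called in neither fit were not counted. Of the values of named genes, 4250 stayed on their side of the thresholds, 29 calls were lost and 9 were gained. With duplicate removal undone ASNS (0.52), ODC1 (0.56) and NFKBIA (0.54) were called higher. The cause was not tested. Genes in the text with at most 10 reads in a library are limited by depth.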
